A study of Mus musculus with 4 samples.

Results

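Gata1, Klf1, Klf3, Myb, Tal1, Nfe2, Zfpm1, Gfi1b and Lmo2 encode transcription factors and cofactors of red blood cell formation. They were listed by name, with earlier results of these data known and no measured value in the rule, and are 9 of the 17507 genes listed in the deposited transcript tables, in which each of them has a row. The tables come from single bone marrow cells of C57BL/6 mice that were placed by flow sorting into multi-well plates and read by SORT-seq, a plate method in which every well has its own barcode and every captured transcript a unique molecular identifier (UMI). All sorted cells lacked CD51, an integrin subunit, and are called TNCs in the labels, which do not spell the term out. The design compares cells with the adhesion receptor CD44 on their surface (CD44+) with cells lacking it (CD44-).

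The CD44+ group holds 3 libraries and the CD44- group holds 3. CD44+ library 1 and CD44- library 1 fill a plate each, and libraries 2 and 3 of each sort share a plate, with CD44+ cells in rows A to H and CD44- cells in rows I to P. The tables number the wells, and numbers were taken to run along the rows, which the labels do not state. The labels name the strain and no genotype, treatment, age or number of mice, so both groups are unmanipulated marrow as far as the labels say, and the p-values are set against library-to-library variation that may be partly technical. A well counted as a cell with at least 1000 transcripts, which kept 238 CD44+ and 105 CD44- wells of 1536 in all. The CD44+ libraries held 56, 95 and 87 such wells with 149707, 1118722 and 1707318 transcripts, and the CD44- libraries held 44, 24 and 37 wells with 97041, 101367 and 158763 transcripts, so the CD44- values rest on fewer molecules. Wells in which mitochondrial genes, or Kcnq1ot1 and the names that accompany it, took a large share of the transcripts made up 25.3% to 55.4% of CD44+ wells and 8.33% to 43.2% of CD44- wells.

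Wells were also classed by 2 erythroid enzymes that are not among the 9 genes. Alas2 encodes the erythroid form of the first enzyme of heme synthesis, and 58 wells with at least 1 Alas2 transcript are called Alas2-containing. Car1 encodes carbonic anhydrase 1, and 40 wells without Alas2 in which Car1 took at least 0.2% of the transcripts are called Car1-rich. The remaining 245 wells are called other wells. The first 2 classes are called erythroid for these enzymes alone, and markers of other cells were found in their wells too: erythroid markers summed to 2644 to 10915 CPM over the Alas2-containing libraries, and neutrophil and stromal markers to as much as 40326 and 41748 CPM. Of the Alas2-containing wells 37 were CD44+ and 21 CD44-, and of the Car1-rich wells 37 were CD44+ and 3 CD44-. Alas2-containing wells made up 15% ± 11.9 of CD44+ wells and 19.6% ± 2.59 of CD44- wells (SD, n = 3 each; exact permutation test, two-sided, p = 0.5). Car1-rich wells made up 17.0% ± 11.2 of CD44+ wells and 3.19% ± 2.83 of CD44- wells (SD, n = 3 each; exact p = 0.2). With 3 libraries against 3, an exact permutation test cannot go below p = 0.1.

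GATA1 is a zinc finger protein that binds GATA motifs and drives the erythroid programme, and it works with its cofactor FOG1, the product of Zfpm1. TAL1 and the bridging protein LMO2 join GATA1 in a complex on many erythroid enhancers, GFI1B is a repressor that silences progenitor genes, and KLF1 binds CACCC boxes in globin, heme and membrane genes and activates Klf3, whose product represses some of the same genes. MYB keeps erythroid progenitors dividing and is turned down as they mature, while the NFE2 protein, with a small MAF partner, acts on the globin locus and in megakaryocytes.

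The promoters of the 4 members that were higher in Car1-rich than in other wells are shown here because they allow the motifs of the members' own proteins to be seen. Each line gives the 250 bases before the RefSeq transcription start, in build GRCm38.p6 and 5′ to 3′ on the strand of the gene. Capitals mark AGATAA or TGATAA, 2 letter forms bound by GATA factors, and CACCC, the core letters bound by KLF proteins, on either strand, so that TTATCA or TTATCT marks a GATA motif and GGGTG a KLF motif on the opposite strand.
Gata1, chrX:7967911-7968160, minus strand: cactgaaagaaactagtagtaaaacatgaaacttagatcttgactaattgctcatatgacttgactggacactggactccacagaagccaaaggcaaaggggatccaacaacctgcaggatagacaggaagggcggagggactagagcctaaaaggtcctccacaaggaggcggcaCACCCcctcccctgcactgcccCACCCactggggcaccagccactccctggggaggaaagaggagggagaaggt
Klf1, chr8:84901732-84901981, plus strand: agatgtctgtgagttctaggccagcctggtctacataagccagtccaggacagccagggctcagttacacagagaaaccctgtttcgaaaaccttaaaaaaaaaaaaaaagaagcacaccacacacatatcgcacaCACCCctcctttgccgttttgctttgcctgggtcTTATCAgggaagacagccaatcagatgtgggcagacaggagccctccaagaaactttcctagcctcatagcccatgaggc
Tal1, chr4:115056176-115056425, plus strand: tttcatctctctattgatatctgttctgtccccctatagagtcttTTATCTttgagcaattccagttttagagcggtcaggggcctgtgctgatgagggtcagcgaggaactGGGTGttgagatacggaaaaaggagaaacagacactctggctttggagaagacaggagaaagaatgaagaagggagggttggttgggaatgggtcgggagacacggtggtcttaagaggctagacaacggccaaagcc
Gfi1b, chr2:28621983-28622232, minus strand: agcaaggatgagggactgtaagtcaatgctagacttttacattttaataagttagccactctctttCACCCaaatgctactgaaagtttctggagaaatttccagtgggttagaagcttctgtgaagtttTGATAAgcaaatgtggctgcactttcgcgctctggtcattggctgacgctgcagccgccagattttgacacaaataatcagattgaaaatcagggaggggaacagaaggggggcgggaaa
The table lists 2 starts for Tal1, of which the upstream window is printed; the window of the other, chr4:115057561-115057810, held none of these motifs. TGATAA stood in the Klf1 and Gfi1b windows and AGATAA in the printed Tal1 window, and the Gata1 window held neither. Each of the 4 printed windows held CACCC, and that of Gata1 held 2 copies. Among the 7 members with a promoter in the RefSeq table, 3 held AGATAA or TGATAA and 7 held CACCC in at least 1 window. Of all 32851 promoter windows of that length, 16.6% held AGATAA or TGATAA and 52.0% held CACCC, so the second motif is common. A match is a description of these letters and not a measured binding site. Nfe2 and Lmo2 had no entry in the table.

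In GENCODE vM21 coordinates of GRCm38, Gata1 lies at chrX:7959260-7978071, Klf1 at chr8:84901928-84905291, Tal1 at chr4:115056426-115071755 and Gfi1b at chr2:28609450-28621982. Klf3 (chr5:64803388-64832901), Myb (chr10:21124935-21160984), Zfpm1 (chr8:122282141-122337251) and Lmo2 (chr2:103957986-103981878) each overlap at least 1 annotated gene, none of which has a row of its own under that name in the tables. Nfe2 lies at chr15:103248212-103258403. Whether counting used strand is not given in the sources used here, so reads of those 4 members and of their overlapping neighbours cannot be told apart.

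The first comparison asks how the factors differ between the CD44+ and CD44- sorts. Klf1, Tal1, Gfi1b and Lmo2 were higher in every CD44+ library than in every CD44- library, and the other 5 members overlapped between the sorts. Of all genes tested, 16.8% were without overlap and higher in CD44+ libraries and 9.22% without overlap and lower. Over all 2463 genes tested, 0.0406% were called higher and 0.974% lower in CD44+ libraries at an adjusted p under 0.05 in edgeR's quasi-likelihood test, and none of the 7 members that passed the filter on low counts was called in either direction (Klf3 and Nfe2 did not pass it). Tal1 and Gfi1b reached the minimum of the filter, 64.8 CPM, in the 3 CD44+ libraries and in 0 CD44- libraries, so they could enter the test only by being high in CD44+. Klf1 reached it in 1 CD44- library, and Gata1 and Lmo2 in 2, each beside the 3 CD44+ libraries. The filter needs about 3 libraries, so Klf1, Gata1 and Lmo2 too could enter only with the help of CD44+ libraries. Levels are the transcripts of a gene over all transcripts of the library, in counts-per-million (CPM), and in such sums fewer expressing cells and less RNA per cell cannot be told apart.

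Klf1 stood at 201, 144 and 335 CPM in the 3 CD44+ libraries, against 51.5, 39.5 and 107 CPM in the 3 CD44- libraries. The lowest CD44+ library was above the highest CD44- library, with means of 226 ± 98.2 and 66.0 ± 36.1 CPM (SD, n = 3 each; exact permutation p = 0.1, the smallest possible). The edgeR log2 difference was 1.64 (SE 0.47) with an adjusted p of 0.132. With the pair of libraries as a block, a fit in which 1.75% of all genes were called higher and 4.59% lower, Klf1 was the only member called, at 1.69 (SE 0.39, adjusted p = 0.0333). Over the 15 alternatives that kept Klf1 the difference lay between 1.34 and 2.15 and its adjusted p between 0.00728 and 0.365, and 3 of them called it. Within pairs, the log2 ratio of CPM plus 10 was 1.77, 1.63 and 1.56.

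Gfi1b stood at 107, 66.2 and 164 CPM in the CD44+ libraries, against 0, 29.6 and 18.9 CPM in the CD44- libraries. The CD44- values rest on 0, 3 and 3 transcripts, and a count of 0 in CD44- library 1 allows up to 30.9 CPM. The 2 sorts did not overlap, and the edgeR log2 difference of 2.65 (SE 0.70) had an adjusted p of 0.117. Without CD44+ library 3, Gfi1b no longer entered the fit. With the block it was 2.63 (SE 0.72, adjusted p = 0.0559).

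Tal1 stood at 107, 86.8 and 189 CPM in the CD44+ libraries and at 41.2, 49.3 and 50.4 CPM in the CD44- libraries. Lmo2 stood at 227, 247 and 350 CPM in the CD44+ libraries and at 124, 49.3 and 126 CPM in the CD44- libraries. Both sets were free of overlap, yet the edgeR differences of 1.33 (SE 0.43) for Tal1 and 1.33 (SE 0.42) for Lmo2 had adjusted p-values of 0.157 and 0.151. Being free of overlap, both were by necessity also higher in the CD44+ library of all 3 pairs. DESeq2, run as an alternative, called Klf1, Gfi1b and Lmo2 higher and left Tal1 uncalled. Over all 2463 genes tested, DESeq2 called 98 higher and 172 lower, against 1 and 24 in edgeR.

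The master regulator Gata1 overlapped between the sorts, at 114, 116 and 221 CPM in CD44+ libraries and 0, 188 and 94.5 CPM in CD44- libraries. Its cofactor gene Zfpm1 stood at 93.6, 138 and 326 CPM in CD44+ libraries, against 82.4, 138 and 94.5 CPM in CD44- libraries. In both genes CD44+ library 3 was the highest of the 6 libraries. The edgeR differences were 0.61 (SE 0.75, adjusted p = 0.691) for Gata1 and 0.70 (SE 0.45, adjusted p = 0.411) for Zfpm1.

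Myb, the progenitor factor, ran from 107 CPM in CD44+ library 1 to 373 CPM in CD44+ library 2, while the CD44- libraries held 237, 217 and 379 CPM. Klf3 averaged 47.3 ± 13.9 CPM in CD44+ libraries and 63.3 ± 47.2 CPM in CD44- libraries (SD, n = 3 each). Nfe2 averaged 50.6 ± 16.2 CPM in CD44+ libraries and 74.7 ± 33.7 CPM in CD44- libraries (SD, n = 3 each). These 3 members had lower means in the CD44+ sort, and the unpaired test found no difference beyond the spread (exact permutation p = 0.5 for Myb and Nfe2, and 0.6 for Klf3). Within pairs, the log2 ratio of CPM plus 10 for Nfe2 was -0.50, -0.14 and -0.71, lower in the CD44+ library of all 3 pairs. The fitted difference of Myb was -0.45 (SE 0.45) and turned to 0.05 with no filter on low counts and to 0.24 with thinned wells.

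**Figure D1:**
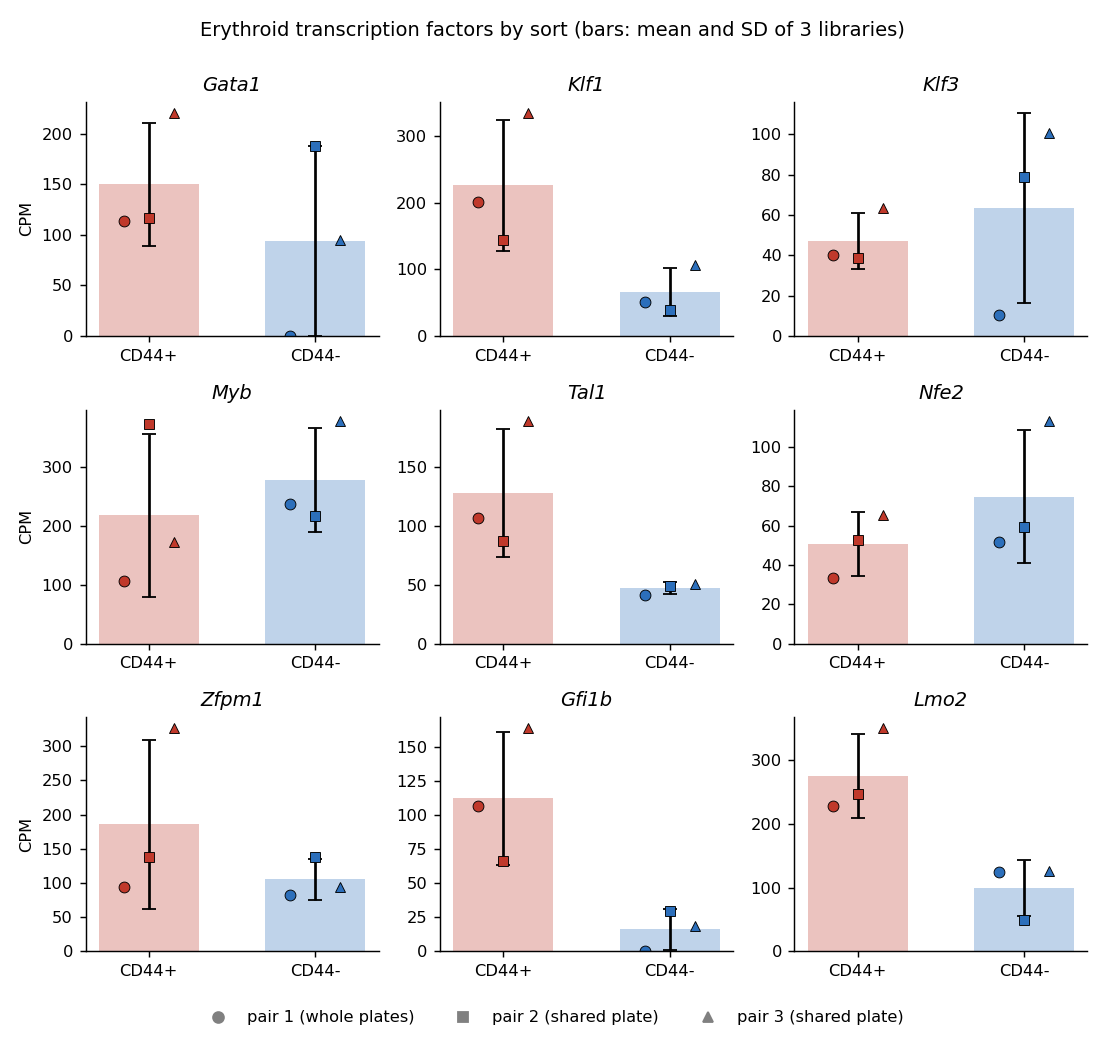
CPM of each gene (vertical axis, linear from 0) in the CD44+ libraries (red, left) and the CD44- libraries (blue, right); points are libraries, marked by pair, and bars give the mean and SD of 3 libraries. Klf1, Tal1, Gfi1b and Lmo2 show no overlap between the sorts, as do 16.8% of all genes tested in that direction, and CD44+ library 3 (triangle) is the highest CD44+ library for 8 of the 9 genes, Myb being the exception.

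Marker lists of the erythroid programme and of stromal cells also had sums that did not overlap between the sorts, and their part in the members' values was not tested. The 9 erythroid markers found that are not members summed to 3236 to 7914 CPM in CD44+ libraries and to 1382 to 2240 CPM in CD44- libraries. The 12 stromal markers summed to 160 to 1428 CPM in CD44+ libraries and to 5657 to 29588 CPM in CD44- libraries. Without the 23 wells in which stromal markers took at least 0.5% of transcripts, the log2 differences were 1.55 for Klf1, 1.11 for Tal1 and 1.00 for Lmo2, and none was called. Within Alas2-containing wells alone only Lmo2 could be tested, with a difference of -0.43, and within other wells alone only Myb, with -0.05.

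Shares of wells with a transcript depend on depth, and CD44+ wells were deeper. Before thinning, all 9 members were found in a higher mean share of CD44+ wells, for example Klf1 in 30.9% ± 20.1 of CD44+ wells and 15.1% ± 15.1 of CD44- wells (SD, n = 3 each), and Lmo2 in 42.3% ± 18.8 of CD44+ and 21.1% ± 3.1 of CD44- wells. After every well was reduced at random to 1000 transcripts, which left 342 of 343 wells, Klf1 was found in 8.24% ± 4.78 of CD44+ wells and 7.47% ± 5.24 of CD44- wells, and Lmo2 in 15% ± 4.0 of CD44+ and 15.2% ± 3.2 of CD44- wells. At equal depth 5 of the 9 members had the higher mean share in CD44+ wells, and the exact permutation p-values lay between 0.3 and 1. Averaged over all possible draws, Klf1 was at 11% ± 5.9 in CD44+ and 6.00% ± 5.31 in CD44- wells, and Gfi1b at 6.81% ± 3.50 in CD44+ and 1.74% ± 1.57 in CD44- wells (exact permutation p = 0.3 and 0.2). That average turned the direction of 2 members: Lmo2 was at 15.5% in CD44+ and 12.8% in CD44- wells, and Myb at 15.7% in CD44+ and 19.3% in CD44- wells.

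The second comparison sets the erythroid classes of wells against other wells. Gata1, Klf1, Tal1 and Gfi1b were higher in Car1-rich than in other wells, and Gata1, Klf1 and Tal1 were higher in Alas2-containing than in other wells. The fit used 16 sums, 6 of Alas2-containing, 4 of Car1-rich and 6 of other wells, with the library as a block. In Car1-rich wells 2.29% of the 1703 genes tested were called higher than in other wells and 14.5% lower, and 4 of the 8 members tested were called higher and 0 lower. In Alas2-containing wells 3.11% of the same genes were called higher and 3.17% lower, and 3 of the 8 members were called higher and 0 lower. Klf3 did not pass the filter. Klf1, Tal1, Gfi1b and Nfe2 reached its minimum, 126 CPM, in 0 of the 6 sums of other wells. Gata1 and Zfpm1 reached it in 1 of them and Lmo2 in 2. The filter needs that minimum in about as many sums as the smallest class holds, here 4. These members could thus enter the test only through sums of an erythroid class in which they were high. Only Myb, at the minimum in 5 sums of other wells, could enter without them. The counts of called members and their adjusted p-values are therefore descriptions.

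Klf1 showed the largest difference of the members in both comparisons. The Alas2-containing sums held 89.6, 295 and 531 CPM in CD44+ libraries 1 to 3 and 241, 89.0 and 129 CPM in CD44- libraries 1 to 3. The 89.6 CPM rests on 1 transcript, and the CD44- values on 5, 3 and 3 transcripts. The Car1-rich sums held 465, 332 and 309 CPM in CD44+ libraries 1 to 3 and 604 CPM in CD44- library 3, the last from 7 transcripts in 2 wells. Other wells held 36.3, 33.9 and 100 CPM in CD44+ libraries and 0, 15.1 and 56.5 CPM in CD44- libraries. Every Car1-rich sum lay above every sum of other wells, as for 16.9% of all genes tested (6.28% lay below), and within each of the 6 libraries the Alas2-containing sum was above that of other wells. The edgeR log2 differences were 2.24 (SE 0.44, adjusted p = 0.0134) for Alas2-containing wells and 2.36 (SE 0.46, adjusted p = 0.00375) for Car1-rich wells.

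Gata1 stood at 448, 232 and 284 CPM in the Alas2-containing sums of CD44+ libraries and at 0, 297 and 259 CPM in those of CD44- libraries. It stood at 214, 266 and 267 CPM in the Car1-rich sums of CD44+ libraries and at 172.5 CPM in that of CD44- library 3. That last value rests on 2 transcripts in 2 wells, and the 448 CPM of Alas2-containing wells in CD44+ library 1 on 5 transcripts. Other wells held 0, 30.9 and 94.3 CPM in CD44+ libraries and 0, 136 and 56.5 CPM in CD44- libraries. The Car1-rich and other sums were free of overlap, as for 16.9% of all genes tested, though the lowest Car1-rich sum held only 2 Gata1 transcripts. CD44- library 1, with 97041 transcripts in all, had no Gata1 transcript in any well. The edgeR differences from other wells were 1.94 (SE 0.47, adjusted p = 0.0264) for Alas2-containing and 1.70 (SE 0.49, adjusted p = 0.0295) for Car1-rich wells.

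Tal1, the helix-loop-helix partner of GATA1, stood at 179, 152 and 260 CPM in Alas2-containing sums of CD44+ libraries and at 193, 59.4 and 86.3 CPM in those of CD44- libraries. Its Car1-rich sums held 161, 210 and 219 CPM in CD44+ libraries and 345 CPM in CD44- library 3, the last from 4 transcripts in 2 wells. Other wells held 60.5, 26.5 and 69.8 CPM in CD44+ libraries and 0, 45.3 and 16.1 CPM in CD44- libraries. Every Car1-rich sum was again above every sum of other wells. The differences were 1.73 (SE 0.47, adjusted p = 0.0406) for Alas2-containing and 1.78 (SE 0.49, adjusted p = 0.0205) for Car1-rich wells.

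The repressor gene Gfi1b stood at 0, 75.7 and 220 CPM in Alas2-containing sums of CD44+ libraries and at 0, 59.4 and 43.1 CPM in those of CD44- libraries. Its Car1-rich sums held 250, 196 and 192 CPM in CD44+ libraries and 0 CPM in CD44- library 3. Other wells reached at most 64.1 CPM, in CD44+ library 3. The 3 CD44+ libraries thus had similar Gfi1b levels in Car1-rich wells, and in Alas2-containing wells library 3 alone was above 100. The 0 values of Alas2-containing wells rest on 11157 transcripts in CD44+ library 1 and 20729 in CD44- library 1. That of Car1-rich wells in CD44- library 3 rests on 11594. Sums this small leave wide room for a level above 0, so these values do not tell the erythroid classes apart. The difference was called for Car1-rich wells at 1.90 (SE 0.53, adjusted p = 0.0236) and not for Alas2-containing wells at 1.29 (SE 0.53, adjusted p = 0.171).

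Lmo2 averaged 289 ± 188 CPM in 6 Alas2-containing sums, 372 ± 201 CPM in 4 Car1-rich sums and 96.7 ± 56.5 CPM in 6 sums of other wells (SD). Zfpm1 averaged 230 ± 182, 181 ± 69.3 and 85.7 ± 40.6 CPM in the same order of classes. The bridging factor and the GATA1 cofactor were both higher on average in the erythroid classes without passing the test. Their differences from other wells were 1.15 (SE 0.45, adjusted p = 0.151) and 1.12 (SE 0.41, adjusted p = 0.124) for Alas2-containing wells, and 1.15 (SE 0.48, adjusted p = 0.116) and 0.58 (SE 0.46, adjusted p = 0.434) for Car1-rich wells. DESeq2 called both in Alas2-containing wells and neither in Car1-rich wells. Over all 1703 genes tested, DESeq2 called 131 higher and 95 lower in Alas2-containing wells, and 129 higher and 345 lower in Car1-rich wells.

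**Figure D2:**
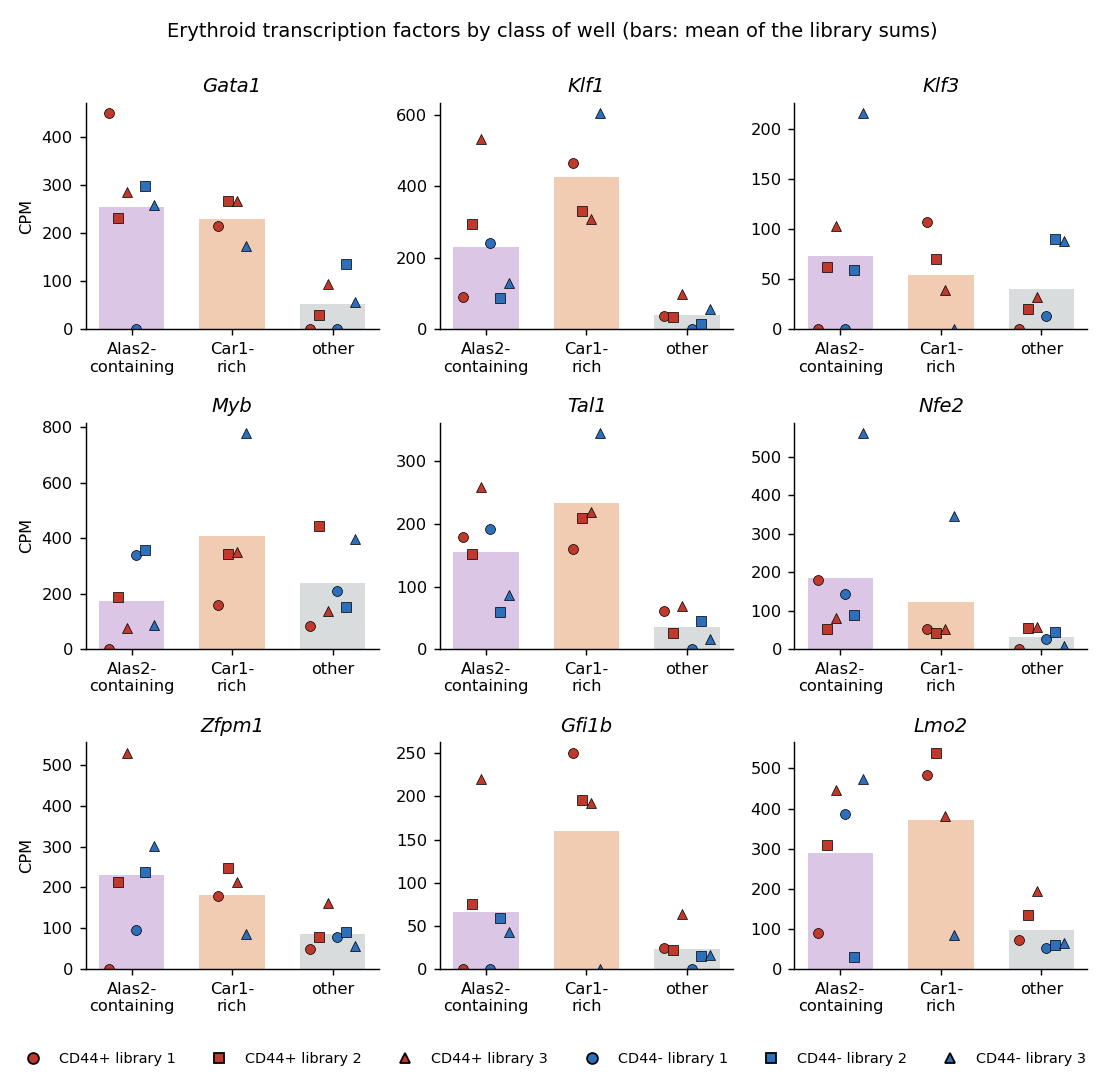
CPM of each gene (vertical axis, linear from 0) in Alas2-containing, Car1-rich and other wells; each point is the sum of 1 library's wells, coloured by sort and marked by library, and bars are means over the sums. Klf1, Gata1 and Tal1 have higher means in both erythroid classes than in other wells. Their Car1-rich points lie above all points of other wells, as for 16.9% of all genes tested, and the lowest Car1-rich point of Gata1 rests on 2 transcripts. Their Alas2-containing points overlap those of other wells, and the Myb points of all 3 classes overlap.

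Myb followed another pattern. Its Alas2-containing sums held 0, 187 and 77.6 CPM in CD44+ libraries and 338, 356 and 86.3 CPM in CD44- libraries, and its Car1-rich sums held 161, 341 and 351 CPM in CD44+ libraries and 777 CPM in CD44- library 3. In all 4 libraries with both classes Myb was lower in the Alas2-containing sum, though not always on many transcripts. In CD44+ library 1 it was 0 against 9 transcripts, the 0 out of only 11157. In CD44- library 3 it was 2 against 9, the 9 from 2 wells. In the comparison of Alas2-containing with Car1-rich wells, in which 0.47% of all genes were called higher and 0% lower, Myb had a log2 difference of -1.29 (SE 0.53) with an unadjusted edgeR p of 0.0284 and an adjusted p of 0.204, so it did not pass. No member was called in that comparison, in edgeR or in DESeq2, and 335 genes had an unadjusted edgeR p under 0.05. The difference of Myb kept its sign in all 18 alternatives, between -2.02 and -0.75, and was called in 0 of them.

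The remaining members did not separate the 2 erythroid classes either. Nfe2 stood 1.03 (SE 0.81) higher in Alas2-containing than in Car1-rich wells on the log2 scale, Zfpm1 0.53 (SE 0.47) higher and Gata1 0.24 (SE 0.48) higher. Gfi1b stood at -0.61 (SE 0.53), Klf1 at -0.12 (SE 0.47), Tal1 at -0.05 (SE 0.49) and Lmo2 at -0.0040 (SE 0.55). All of these had adjusted p-values of at least 0.548. The SEs are close to 0.5 or above it, so differences of about 1 on the log2 scale could not be told from 0 with these sums. The signs of Klf1, Tal1, Lmo2, Gata1 and Gfi1b turned under at least 1 alternative.

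**Figure D3:**
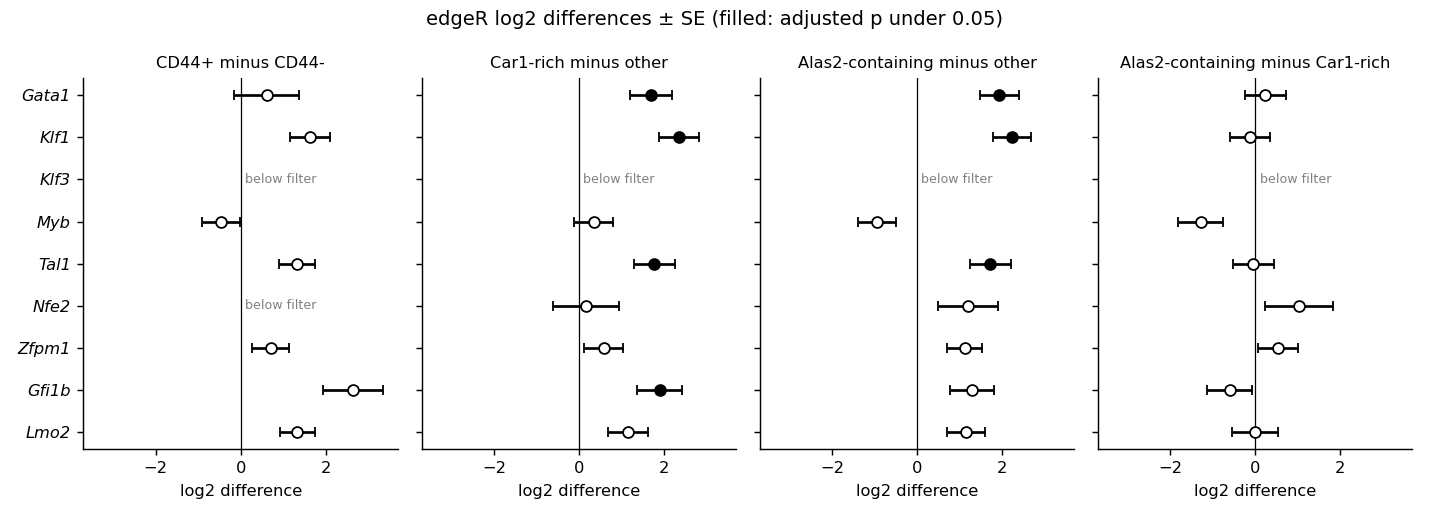
edgeR log2 differences with their SE (horizontal axis) for each gene in 4 comparisons; filled points have an adjusted p under 0.05. Filled points appear only against other wells, 4 in Car1-rich and 3 in Alas2-containing wells.

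Within libraries the direction held for most members. Of the 4 libraries with Car1-rich sums, 4 had the higher value in Car1-rich than in other wells for Gata1, Klf1, Tal1, Zfpm1 and Lmo2, 3 for Gfi1b, Klf3 and Myb, and 2 for Nfe2. Of the 6 libraries with Alas2-containing sums, 6 had the higher value there than in other wells for Klf1 and Tal1, 5 for Gata1, Nfe2, Zfpm1 and Lmo2, 4 for Gfi1b, 3 for Klf3 and 2 for Myb. In CD44- library 1 Gata1 and Gfi1b tied at 0 transcripts. Some of these values rest on 1 transcript (Klf1, CD44+ library 1) or 2 (Tal1, CD44+ library 1 and CD44- libraries 2 and 3). For Gata1, Klf1 and Tal1 the Car1-rich counts follow from the lack of overlap above. No share over all genes is given for these counts. Low-quality wells made up 19.0% of Alas2-containing, 5.00% of Car1-rich and 42.9% of other wells, and without them the Car1-rich differences were 2.33 for Klf1, 2.62 for Tal1 and 1.75 for Gata1, all still called, and 1.73 for Gfi1b, no longer called. In Alas2-containing wells the same step gave 2.35 for Klf1 and 2.51 for Tal1, both called, and 1.92 for Gata1, not called. Over all 1253 genes then tested, 16 were called higher and 159 lower in Car1-rich wells, and 22 and 1 in Alas2-containing wells. The main fit called 39 and 247, and 53 and 54, of 1703 genes, so calls fell over all genes too. Without CD44+ library 2, Klf1 alone was called in Car1-rich wells and no member in Alas2-containing wells, so the counts of called members depend on that library. The differences themselves stayed at 1.37 for Gata1, 1.54 for Tal1 and 1.47 for Gfi1b in Car1-rich wells, and at 2.08 for Klf1, 1.85 for Gata1 and 1.60 for Tal1 in Alas2-containing wells. Calls over all genes fell to 4 higher and 106 lower in Car1-rich wells and to 8 higher and 1 lower in Alas2-containing wells.

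In a well reduced to 1000 transcripts, Klf1 was found on average over all draws in 20.9% of Alas2-containing, 28.0% of Car1-rich and 3.83% of other wells. Without thinning it was found in 30 of 58 Alas2-containing, 32 of 40 Car1-rich and 30 of 245 other wells, with median depths of 4889, 9039 and 2837 transcripts in these classes. Gfi1b was found at equal depth in 8.94%, 17.1% and 2.11% of the same classes, and Nfe2 in 18.0%, 4.87% and 2.67%. Every member except Myb was found more often in both erythroid classes than in other wells. The share was larger in Alas2-containing than in Car1-rich wells for Nfe2, Zfpm1 (24.8% and 16.3%), Klf3 (7.21% and 3.54%), Tal1 (17.0% and 15.3%) and Gata1 (19.6% and 18.4%). For Klf1, Gfi1b, Lmo2 and Myb it was smaller. Myb was found in 10.4% of Alas2-containing, 22.5% of Car1-rich and 18.6% of other wells. These shares are descriptions and were not tested over libraries.

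Single wells rarely showed the full set at this depth. After thinning, at least 3 of the 9 members were seen together in 11 of 58 Alas2-containing wells, 8 of 40 Car1-rich wells and 7 of 244 other wells, and none was seen in 15, 8 and 144 wells of these classes. Without thinning, 22 wells held transcripts of all 9 members, of which 21 were Alas2-containing or Car1-rich. These were deep wells, since the 50 wells with at least 7 members had a median of 27021 transcripts.

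The 2 thresholds behind the classes were looked at from both sides. In the 13 wells just inside the Car1 limit (0.2% to 0.3% of transcripts) Klf1 stood at 298, Gata1 at 255 and Myb at 231 pooled CPM, and in the 11 wells just outside it (0.1% to 0.2%) Klf1 stood at 269, Gata1 at 280 and Myb at 224 pooled CPM. The 31 wells with at least 2 Alas2 transcripts held 462 CPM of Klf1, 545 of Zfpm1 and 492 of Lmo2, and the 27 wells with exactly 1 held 409, 204 and 213 CPM. Tal1 stood at 241 CPM just inside the Car1 limit and 123 just outside it, Gfi1b at 227 and 179, and Nfe2 at 56.7 and 22.4. The wells just outside held 89251 transcripts in all, with 11 of Tal1, 16 of Gfi1b and 2 of Nfe2. Their median depth was 2830 transcripts, against 22538 just inside. Such counts cannot show whether some members differed across the limit more than others. In the 9 wells with both Alas2 and Car1 at 0.2% or more, Klf1 stood at 535 CPM and Myb at 116 CPM.

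The other wells were themselves mixed, and the members divided among them. They were grouped, after the data were seen, by which of the B progenitor, neutrophil, monocyte and stromal marker lists took the largest share, if at least 0.5%. In 43 wells with B progenitor markers Myb stood at 1118 pooled CPM, from 246 transcripts, and was found in 36 wells, while Klf1 was found in 0 wells, which allows up to 13.6 CPM and up to 6.98% of wells with a Klf1 transcript, a limit on detection and not on the cells that express it. Gata1 stood at 9.07, Tal1 at 4.54 and Gfi1b at 4.54 CPM there, and Zfpm1 at 177 CPM in 21 wells. Myb thus reached its highest level outside the erythroid classes, and the FOG1 gene was present in B progenitor wells in which its partner Gata1 was at 2 transcripts.

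In 60 other wells with neutrophil markers Myb stood at 196, Lmo2 at 170 and Nfe2 at 106 pooled CPM, and Klf1 at 5.86, Gfi1b at 7.81 and Tal1 at 13.7 CPM. In 16 wells with stromal markers Tal1, Gfi1b and Lmo2 had 0 transcripts, which allows up to 26.2 CPM, and Klf3 stood at 69.8 CPM. The 125 wells with none of these lists held 115 CPM of Klf1, 93.5 of Gata1, 80.7 of Tal1 and 69.4 of Gfi1b, and 93 of them were of low quality. Klf1, Gata1, Tal1 and Gfi1b thus had most of their transcripts outside the erythroid classes in these unmarked wells, for example 81 of 87 for Klf1. Free RNA can place a transcript in a well whose cell does not make it, and its part in these values was not tested. Klf1 stood at 444 pooled CPM in Alas2-containing and 331 in Car1-rich wells. It stood at 0, 5.86 and 26.2 CPM in the B progenitor, neutrophil and stromal groups of other wells. The median depths of these groups were 4242, 2423 and 6258 transcripts. Other wells by definition lack Alas2 and are not Car1-rich. A well of these lineages that gained Alas2 or much Car1 from free RNA would have been classed as erythroid. Low Klf1 in these groups was thus partly set by the classes and cannot measure free RNA.

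**Figure D4:**
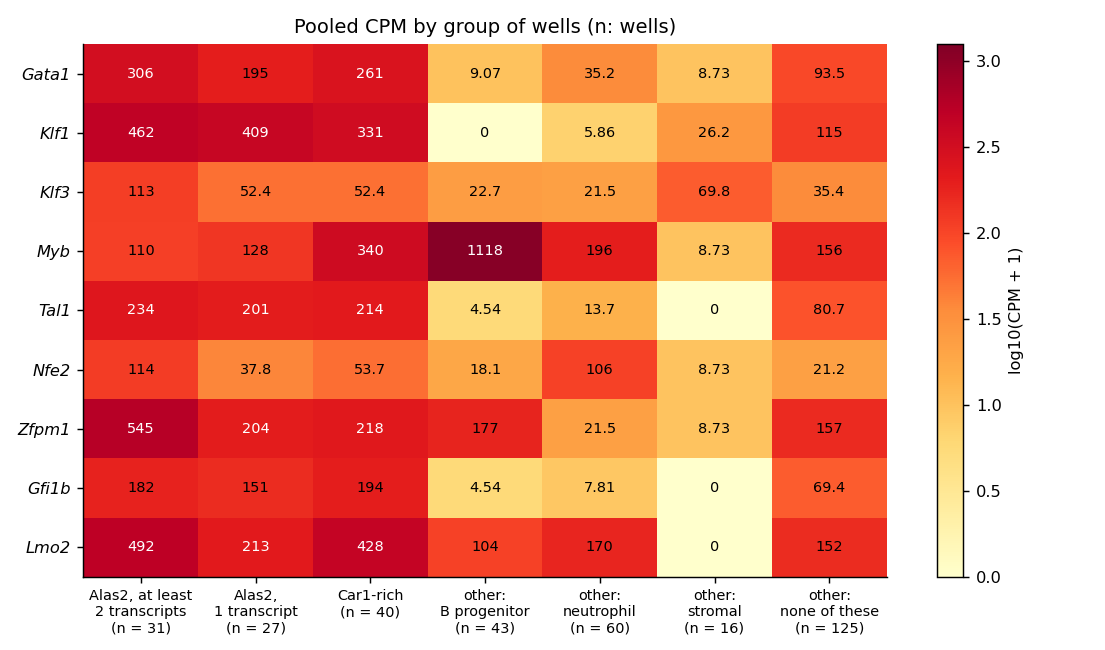
Pooled CPM (numbers, colour on a log10 scale) of each gene in Alas2-containing wells split by Alas2 count, Car1-rich wells and 4 groups of other wells, with the number of wells under each column; 1 other well with monocyte markers is not drawn. Klf1, Tal1 and Gfi1b are near 0 in B progenitor, neutrophil and stromal wells, and Myb is highest in B progenitor wells.

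Several of the 9 genes are also used by megakaryocytes, mast cells and stem cells, so markers of these cells were read in the erythroid classes. The 10 megakaryocyte markers found summed to 52.4 CPM in Alas2-containing, 28.8 in Car1-rich and 26.3 in other wells. Treml1 had 0 transcripts in all 3 classes. The 7 mast cell and basophil markers summed to 4.95, 1.31 and 50.7 CPM, with Cpa3, Ms4a2, Cma1, Prss34 and Fcer1a at 0 in both erythroid classes. The 6 stem and progenitor markers summed to 51.5, 217 and 137 CPM, with Cd34 and Flt3 at 0 in both erythroid classes, and Gata2, the GATA factor of progenitors, stood at 8.90 CPM in Alas2-containing, 34.1 in Car1-rich and 6.41 in other wells. Neutrophil markers summed to 2413 CPM in Alas2-containing and 242 CPM in Car1-rich wells, against 22706 CPM in other wells. Stromal markers summed to 1568 CPM in Alas2-containing, 87.8 in Car1-rich and 5105 in other wells, and B progenitor markers to 729, 70.8 and 2589 CPM. Over single libraries the neutrophil sums of Alas2-containing wells ran from 93.2 to 40326 CPM and the stromal sums from 71.7 to 41748 CPM, and the part of these cells in the members' values was not tested.

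The partners and targets of the factors were read from lists chosen with earlier results of these data known, so their counts describe and do not support. Of 30 erythroid genes with published GATA1 or KLF1 dependence that were tested, 17 were called higher and 0 lower in Alas2-containing than in other wells, with a median log2 difference of 1.88 against -0.13 over all genes. Among them the anion exchanger gene Slc4a1 stood at 535 pooled CPM in Alas2-containing and 23.7 in other wells (log2 difference 4.30, SE 0.48, adjusted p = 0.000288), and the beta-globin row Beta-s at 8840 in Alas2-containing and 481 CPM in other wells (4.48, SE 0.70, adjusted p = 0.00285).

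In Car1-rich wells 6 of these 30 genes were called higher than in other wells and 1 lower. Carbonic anhydrase gene Car2 stood at 4338 pooled CPM in Car1-rich and 630 in other wells (2.08, SE 0.61, adjusted p = 0.0291), the water channel gene Aqp1 at 589 in Car1-rich and 137 in other wells (1.78, SE 0.48), the metallothionein gene Mt2 at 437 in Car1-rich and 41.7 in other wells (2.71, SE 0.59), and Fam132a at 862 in Car1-rich and 144 in other wells (1.98, SE 0.57). The nuclear export receptor gene Xpo7 was the gene called lower, at 13.1 in Car1-rich and 88.5 CPM in other wells (-2.94, SE 0.83). Between the erythroid classes 3 of the 30 were called higher in Alas2-containing wells, namely Slc4a1 (3.90, SE 0.59), Beta-s (4.79, SE 0.82) and Xpo7 (4.34, SE 0.88). In the CD44+ against CD44- comparison 1 of 28 was called, Alad, a heme synthesis enzyme gene higher in CD44+ libraries (2.72, SE 0.49, adjusted p = 0.0488), and with the pair as a block 7 were called higher, Car2, Cpox and Fam132a among them, and 1 lower, Xpo7.

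Of 16 tested partners and coregulators, such as LDB1 complex, chromatin and E2F proteins, 0 were called in either erythroid class against other wells (17 tested and 0 called between the sorts), with 502 genes in Car1-rich and 361 in Alas2-containing wells at an unadjusted edgeR p under 0.05. The only call was E2f2, a cell cycle factor at 266 pooled CPM in Alas2-containing and 53.7 in Car1-rich wells (2.05, SE 0.42, adjusted p = 0.0411). Of 3 tested factors of other lineages, the myeloid genes Irf8 and Spi1 were called lower in Car1-rich than in other wells, at 3.93 CPM each in Car1-rich wells against 230 and 139 CPM in other wells. Klf6, 1 of 3 tested KLF and MYB relatives, was also called lower there (11.8 CPM in Car1-rich and 88.5 in other wells), and between the sorts Sp1 was called lower in CD44+ libraries with the pair as a block (-1.54, SE 0.38, adjusted p = 0.0416).

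The genes whose levels followed each member most closely were read over the 16 class sums, as Pearson's r of log2(CPM + 10) across 1703 tested genes. Because these sums share libraries and differ in depth, r is only a description. Klf1 was followed most closely by Gclm (r = 0.93), Car1 (0.92), which defines a class, and Tmx1 (0.91). Tal1 was followed by Gclm (0.91), Kel (0.89), a red cell membrane gene, and Prdx2 (0.89), Gata1 by Uqcr10 (0.90), Eif3l (0.90) and Minpp1 (0.88), and Gfi1b by Bola3 (0.93), Spire1 (0.92) and Farsb (0.92). Lmo2 was followed by Nxpe2 (0.87), Sdha (0.86) and Cldn13 (0.86), and Zfpm1 by Slc16a1 (0.92), Vars (0.90) and Ngfrap1 (0.89). The closest to Myb were Mbnl1, Rac1 and Hdac7 (0.89 each), to Nfe2 Gapvd1 (0.92), Sec62 (0.86) and Wdr26 (0.84), and to Klf3 Epdr1 (0.92), Ptplad1 (0.91) and Gsk3a (0.89). Gclm was the only gene that stood among the closest 3 of more than 1 member.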

How the data were processed

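The authors deposited expected counts: transcripts of each gene in each well, estimated from UMIs and not scaled across wells. BWA 0.7.15 and mm10 are named, per the submitters' processing notes. Which counter and annotation were used, and whether strand was, is not given in the sources used here. Undoing a saturation correction for 4096 UMIs returned all 821564 values above 0 to whole numbers (tolerance 0.011), and it had added 2.49% to the sums; no label records that step. Values were summed and rounded to whole numbers.

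Members and lists were chosen with earlier results of these data known. Wells under 1000 transcripts and 79 spike-ins were left out, and no doublet caller was run. Kept wells were summed per library, or per library and class (at least 2 wells and 5000 transcripts), and tested with edgeR 4.0.16 in R 4.3.3 (quasi-likelihood, TMM, filterByExpr, Benjamini-Hochberg, threshold 0.05); DESeq2 1.42.0 was an alternative. Low-quality wells (118) had mitochondrial genes at 50% or more, or 8 names led by Kcnq1ot1 at 10% or more, a list chosen after the data were seen. Library numbers and shared plates pair the sorts: deviations of same-numbered libraries over 3215 genes correlated at 0.47, 0.31 and 0.29, and those of other pairs at -0.35 to 0.10. Named genes were all members, up to 4 called genes per list, direction and comparison, and the 3 genes most correlated with each member. Intervals and limits cover counting error only. Alternatives changed the normalization, tool, filter, well minimum, depth, class thresholds, block and libraries.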

Additional observations from a re-analysis of the deposited data

Results flagged for a closer look

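Of 27 sets of class values, 4 held a library that stood apart from the rest by Dixon's criterion, which chance alone meets in about 1 set in 20. Nfe2 stood at 345 CPM in the Car1-rich wells of CD44- library 3, against at most 53.6 CPM in the 3 CD44+ libraries, from 4 transcripts in 2 wells. Nfe2 stood at 561 CPM in the Alas2-containing wells of the same library, against at most 179 CPM in the other 5, from 13 transcripts. Zfpm1 stood at 162 CPM in the other wells of CD44+ library 3, against at most 90.6 CPM elsewhere. Gfi1b stood at 220 CPM in the Alas2-containing wells of CD44+ library 3, against at most 75.7 CPM elsewhere.

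The 1193 wells under 1000 transcripts, which enter no comparison, held 222 transcripts of the 9 genes in 249389 transcripts in all. Myb had 51 of them, Lmo2 44, Gata1 40 and Gfi1b 6. Gata1 stood at 160 CPM and Klf1 at 64.2 CPM in these wells.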

How the results depend on the processing

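Between the sorts the count of members called higher was 0, 3 in DESeq2 and 3 with no filter on low counts (Klf1, Gfi1b and Lmo2 in both), and 1 (Klf1) with the pair of libraries as a replicate block; leaving out 1 library gave 0 to 0. Over all genes the counts were 1 higher and 24 lower, 98 and 172 in DESeq2, 43 and 113 with the replicate block, 142 and 335 with no filter, and 1 and 160 on the shared plates alone. With 1 library left out they were 6 and 109 without CD44- library 1 and 0 and 0 in each of the 5 other fits. The difference of Myb turned to 0.050 with no filter and 0.24 with wells thinned to 1000 transcripts, and that of Lmo2 to -0.43 in Alas2-containing wells only. The thinned shares gave 9 members higher in CD44+ without thinning, in place of 5, and 3 to 8 when 1 library was left out.

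Against other wells, Car1-rich wells gave 4 members, 2 without the deepest wells, 0 with thinned wells, 0 with a Car1 threshold of 0.5%, and 1 to 4 with 1 library left out (1 without CD44+ library 2, 2 without CD44+ library 3). Alas2-containing wells gave 3 members, 6 in DESeq2, 0 with thinned wells, 1 with no replicate block, 0 at 0.5%, 1 with at least 2 Alas2 transcripts, and 0 to 3 with 1 library left out (0 without CD44+ library 2). After thinning 0 members passed the filter, so that alternative tested none; at 0.5% wells with less Car1 join the other wells. Without the block Gata1 lost its call against other wells in both erythroid classes and Tal1 in Alas2-containing wells; it moved no other call of a member. Over all genes the calls were 39 higher and 247 lower in Car1-rich wells (129 and 345 in DESeq2, 59 and 1158 with no filter), and 53 and 54 in Alas2-containing wells (131 and 95 in DESeq2, 114 and 479 with no filter, 23 and 1 with no block). Between the erythroid classes they were 8 and 0, 142 and 27 in DESeq2, and 129 and 8 without CD44+ library 3.

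In Car1-rich against other wells Myb turned to -0.017 with no replicate block and ran from -0.0072 to 0.81 with 1 library left out. Nfe2 turned to -0.16 at 0.5%, -0.16 with at least 2 Alas2 transcripts and -0.52 in CD44+ libraries only, and Zfpm1 to -0.47 at 0.5%.

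In Alas2-containing against Car1-rich wells, differences near 0 changed sign. RLE normalization gave 0.073 for Tal1 and 0.13 for Lmo2, and DESeq2 0.018 for Klf1, 0.073 for Tal1 and 0.13 for Lmo2. A minimum of 2000 transcripts gave 0.23 for Klf1 and 0.078 for Tal1. Leaving out low-quality wells gave 0.024 for Klf1 and 0.25 for Lmo2, and leaving out the deepest wells 0.30 for Lmo2. A Car1 threshold of 0.1% gave 0.041 for Klf1, and 0.5% gave -0.030 for Gata1, 0.47 for Klf1, 0.69 for Tal1, 0.13 for Gfi1b and 0.073 for Lmo2. At least 2 Alas2 transcripts gave 0.21 for Klf1, 0.079 for Tal1 and 0.038 for Lmo2. Without stromal-marker wells Tal1 stood at 0.018 and Lmo2 at 0.12, and in CD44+ libraries only Klf1 at 0.062 and Tal1 at 0.097. With 1 library left out Klf1 ran from -0.55 to 0.13, Tal1 from -0.25 to 0.094 and Lmo2 from -0.44 to 0.33. The causes were not tested.

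Alternatives by Alas2-containing, other or CD44+ wells only, class fits without stromal-marker wells and the mean over all draws were chosen after seeing the data. Depth limits all CD44- libraries and CD44+ library 1: CD44+ library 1 holds 5 to 34 transcripts of each member and CD44- library 1 holds 0 to 23.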

Other observations

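Single wells held many transcripts of some factors. For Klf1 the highest count was 57 transcripts in Alas2-containing, 32 in Car1-rich and 20 in other wells. For Zfpm1 it was 56 in Alas2-containing, 22 in Car1-rich and 22 in other wells. For Myb it was 24 in Alas2-containing, 49 in Car1-rich and 30 in other wells. Epor, the erythropoietin receptor gene, was found in 27 of 58 Alas2-containing and 24 of 40 Car1-rich wells, against 27 of 245 other wells, at unequal depth. At 1000 transcripts per well, averaged over all draws, the shares were 12.1% of Alas2-containing, 10.6% of Car1-rich and 4.14% of other wells.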
